A study of Rattus norvegicus with 6 samples.

Results

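The genes described here encode the core machinery that makes microRNAs and uses them to silence messenger RNAs. They were the 10 rows of the deposited gene table, out of 35291 rows, whose symbol was Drosha, Dgcr8, Xpo5, Dicer1, Tarbp2, Ago1, Ago2, Ago3, Ago4 or Tnrc6a, and each symbol labelled a single row. The table holds RNA-Seq values of whole testis from Sprague-Dawley rats, an outbred strain. In the diabetic (DM) group, 3 rats had been fed a high-fat diet and then injected once with streptozotocin (STZ), a toxin of pancreatic beta cells, and the testes represent 8 weeks of diabetes. The non-diabetic (ND) group was 3 rats labelled as normal. According to the methods, control animals were injected with citrate buffer. The sources used here do not say whether the ND rats also ate the high-fat diet, so STZ and diet cannot be told apart. The model therefore combines a single chemical injury with feeding, and whole testis mixes germ cells, Sertoli cells, Leydig cells and others.

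MicroRNAs are cut from long primary transcripts in steps. In the nucleus the Microprocessor, made of the ribonuclease DROSHA and the hairpin-binding protein DGCR8, releases a hairpin, and exportin-5 carries it to the cytoplasm. There DICER1, with its double-stranded RNA-binding partner TARBP2, trims the hairpin to a short duplex, an Argonaute protein keeps one strand as a guide, and TNRC6A, a protein of the GW182 family, links Argonaute to the enzymes that shorten poly(A) tails and remove caps. In mice, loss of Dicer1 from germ cells or from Sertoli cells is known to impair spermatogenesis. The study also sequenced small RNAs of diabetic testes; no mature microRNA level was analysed here.

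The sequences of miR-504 and miR-935, the microRNAs that the study followed in a Leydig cell line, are shown because they are products of the pathway. They come from RefSeq (GRCr8), and the capitals mark the seed, bases 2 to 8, through which a guide finds its targets. The seeds differ from each other. The first lies at chrX:142354466-142354487 and the second at chr1:74671223-74671245, both on the minus strand.
rno-miR-504: aGACCCUGgucugcacucuguc
rno-miR-935: cCAGUUACcgcuuccgcuaccgc

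A microRNA hairpin of RefSeq also lies inside 1 of the 10 genes, Dgcr8, whose transcript is known to be cut by the Microprocessor itself. This hairpin, Mir1306, spans chr11:96213960-96214032 on the plus strand (GRCr8), and the capitals mark its 5p and 3p mature arms.
Mir1306 hairpin: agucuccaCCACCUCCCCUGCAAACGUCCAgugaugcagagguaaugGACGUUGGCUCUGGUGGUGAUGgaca
The deposited table has a row for this hairpin. It held 0.152, 0.133 and 0.138 FPKM in the DM rats and 0.118, 0.131 and 0.2002 FPKM in the ND rats, and the groups overlapped. These values are under the 0.5 FPKM filter used for tests and are no measure of the mature microRNAs. FPKM scales the sequenced fragments of a gene by transcript length and by library size, so levels of different genes can be compared on it only roughly. Reads of the hairpin and of the surrounding Dgcr8 transcript cannot be told apart in these values.

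All 10 genes were expressed in every rat, and none passed the test for a difference between DM and ND testes after correction for the number of genes tested. The measured differences were small. For 9 of the 10 genes the log2 fold change (DM against ND, on log2(FPKM + 0.1)) was under 0.2 in size, and the exception was Tarbp2, which was 21.25% higher in mean FPKM in the DM rats. For each of the 10 genes the 95% interval of the log2 fold change excluded a 2-fold change in either direction. The lowest bound among the 10 intervals was -0.49, for Ago4, and the highest was 0.52, for Tarbp2. limma compared the groups over the 20338 genes averaging 0.5 FPKM or more, and all 10 genes passed that filter. By limma, 0 of the 10 genes had an adjusted p-value below 0.05, against 0.0344% of all genes tested (0.00983% higher and 0.0246% lower). The criterion of the study, a change of 1 or more in size on the log2 scale together with an unadjusted p-value below 0.05, was met by 0 of the 10, against 1.24% of all genes. An unadjusted p-value below 0.05 was reached by 1 of the 10, Tarbp2, against 7.46% of all genes tested, 2.47% higher and 4.99% lower. The median log2 fold change of the 10 genes was -0.035, beside -0.021 for all genes tested, and 6 of them had a value below 0. The limma standard errors of the 10 genes had a median of 0.093, beside 0.15 for all genes tested.

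**Figure D1:**
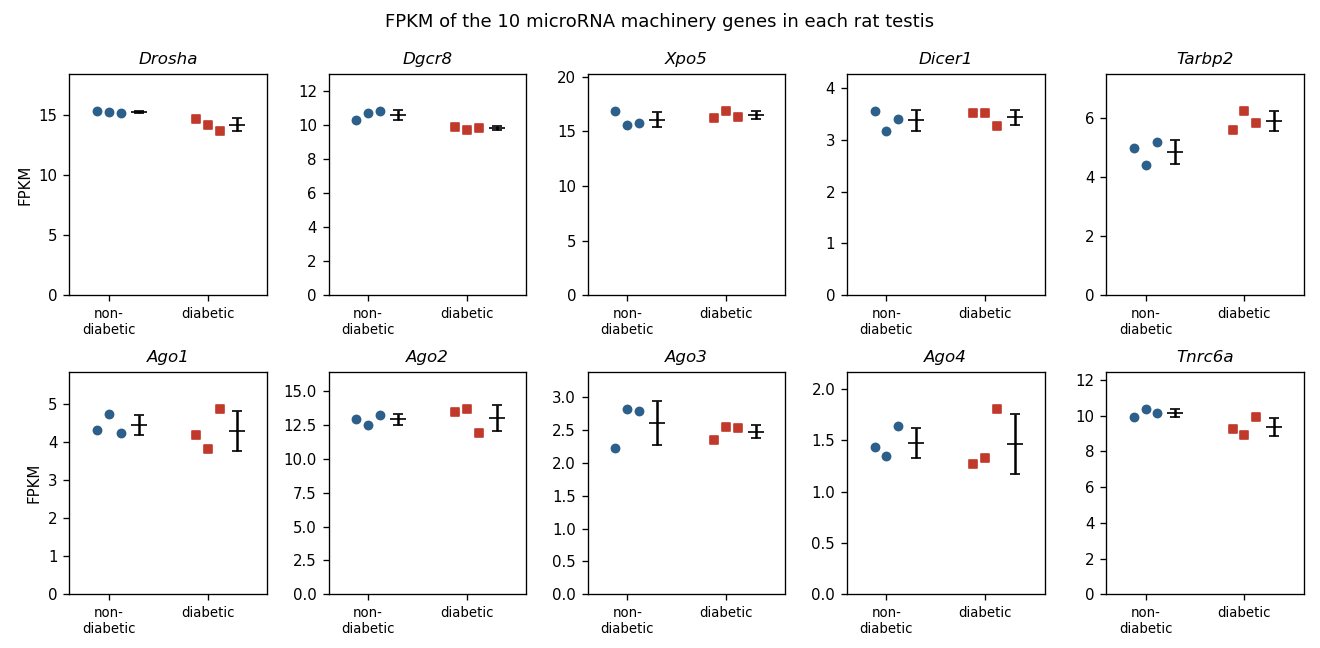
FPKM of each of the 10 genes in the 3 ND rats (blue circles) and the 3 DM rats (red squares), with the mean and SD of each group as a black bar; each panel has its own linear axis from 0. The groups separate for Drosha, Dgcr8 and Tnrc6a, where the DM rats are lower, and for Tarbp2, where they are higher, and overlap in the other panels.

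As deposited, DM and ND values were fully separate for 4 of the 10 genes, against 13.0% of all genes tested. Drosha, Dgcr8 and Tnrc6a were lower in every DM rat than in every ND rat (3 of 10, against 8.42% of all genes), and Tarbp2 was higher in every DM rat (1 of 10, against 4.56%). This count depended on the scaling of the libraries. When each library was divided by its median ratio to the others, the groups stayed apart for Dgcr8 and Tarbp2 only, and 13.4% of all genes were apart. The share of these genes that were lower in DM testes was 64.89% as deposited and 50.05% under that scaling. With 3 rats against 3, an exact permutation test (two-sided) cannot give a p-value below 0.1, and it gave 0.1 for each of these 4 genes.

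The relative depth of the libraries, read from the commonest ratio among genes below 1 FPKM, was 0.966 to 1.09 in the DM rats and 0.893 to 1.02 in the ND rats, against a mean of 1. The ratios were taken to DM replicate 1, and each was shared by only 32 to 46 genes, so these depths are rough. The number of reads is unknown. The tissue was checked against marker genes. Spermatid markers summed to between 11870 and 14110 FPKM over the 6 rats and spermatocyte markers to between 1342 and 1412 FPKM, with overlapping groups. Sertoli cell markers (268.9 to 337.3 FPKM) and peritubular myoid cell markers (72.8 to 94.3 FPKM) also overlapped. Leydig cell markers stood apart. Their sum was 27.3 to 57.35 FPKM in the DM rats and 84.5 to 117.2 FPKM in the ND rats, and each of the 6 markers found had an unadjusted p-value from limma below 0.05, with 1 below 0.05 after adjustment. Spermatogonial markers summed to 57.7 to 68.85 FPKM in the DM rats and 53.7 to 57.4 FPKM in the ND rats. This separation rested on Uchl1, singled out after its values were seen. Without Uchl1 the sums were 14.25 to 19.8 and 16.55 to 19.2 FPKM and overlapped. The median log2 fold change of the 6 tested spermatogonial markers was -0.17, and by limma Uchl1 was higher and Kit lower at an unadjusted p-value below 0.05. Macrophage markers summed to 26.2 to 31.44 FPKM in the DM rats and 31.3 to 33.1 FPKM in the ND rats, and the groups overlapped. Of these markers, 3 of 6 were lower at that unadjusted threshold by limma, and 0 had an adjusted p-value below 0.05. Summed levels of adipocyte markers (5.48 to 8.17 FPKM) and red blood cell markers (26.2 to 55.1 FPKM) overlapped between groups, as did those of endothelial markers (5.39 to 7.09 FPKM). The part of these cell types in the values of the 10 genes was not tested, and in bulk tissue fewer cells of a type and less RNA per cell cannot be told apart.

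At the nuclear step, both partners of the Microprocessor had slightly lower means in DM testes. Drosha (ENSRNOG00000013451), the ribonuclease, was at 14.7, 14.2 and 13.7 FPKM in the DM rats and at 15.4, 15.3 and 15.2 FPKM in the ND rats. Every DM rat thus lay below the narrow range of the ND rats. The means were 14.2 ± 0.526 and 15.3 ± 0.104 FPKM (SD, n = 3 each), a difference of -7.02%. By limma there was a log2 fold change of -0.10 ± 0.066 (SE), with 95% bounds of -0.26 and 0.051 (adjusted p = 0.809). Under median-ratio scaling the value was -0.076 and the groups overlapped.

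Dgcr8 (ENSRNOG00000001886), which encodes the hairpin-binding partner of DROSHA, was at 9.895, 9.69 and 9.81 FPKM in the DM rats and at 10.3, 10.7 and 10.8 FPKM in the ND rats. The DM values were tightly grouped below the ND values. Means of 9.80 ± 0.103 and 10.6 ± 0.294 FPKM (SD, n = 3 each) gave a difference of -7.48%. By limma there was a log2 fold change of -0.11 ± 0.071 (SE), with 95% bounds of -0.28 and 0.056 (adjusted p = 0.812 from limma), and -0.082 under median-ratio scaling, where the groups stayed apart. The ratio of Drosha to Dgcr8 FPKM overlapped between the groups, at 1.45 ± 0.0494 in the DM rats and 1.44 ± 0.05025 in the ND rats (SD, n = 3 each). This ratio ranged from 1.39 to 1.499 over the 6 rats.

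The promoters of the 4 genes whose groups were apart are shown for their sequence context. They are RefSeq windows (GRCr8) from 250 bases before to 50 bases after 1 start site of each gene. Capitals mark matches, on either strand, to any of 6 motifs. These were the GC box, spelled GGGCGG, the box named CCAAT after its letters, the TATA box, searched as TATAAA, the E box, searched as CACGTG, the core site of ETS factors, searched as CCGGAAG, and the core site of NRF1, searched as GCATGCG. Neighbouring matches can overlap, as the GC box and the E box of Dgcr8 do. The windows lie at chr2:63591728-63592027 (Drosha), chr11:96208788-96209087 (Dgcr8), chr1:187077294-187077593 (Tnrc6a) and chr7:135527460-135527759 (Tarbp2), all on the plus strand.
Drosha promoter: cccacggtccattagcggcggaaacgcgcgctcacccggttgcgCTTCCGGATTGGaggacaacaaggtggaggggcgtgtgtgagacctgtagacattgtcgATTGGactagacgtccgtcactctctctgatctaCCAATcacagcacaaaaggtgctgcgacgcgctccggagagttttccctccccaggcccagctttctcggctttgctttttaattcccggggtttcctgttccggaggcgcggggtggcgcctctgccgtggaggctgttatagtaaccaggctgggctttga
Dgcr8 promoter: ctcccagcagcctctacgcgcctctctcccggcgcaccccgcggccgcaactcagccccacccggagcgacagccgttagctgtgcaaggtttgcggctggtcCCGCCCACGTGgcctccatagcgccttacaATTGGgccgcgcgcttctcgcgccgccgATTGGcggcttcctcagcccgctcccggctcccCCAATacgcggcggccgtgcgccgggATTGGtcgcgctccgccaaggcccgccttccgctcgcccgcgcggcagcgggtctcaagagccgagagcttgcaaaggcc
Tnrc6a promoter: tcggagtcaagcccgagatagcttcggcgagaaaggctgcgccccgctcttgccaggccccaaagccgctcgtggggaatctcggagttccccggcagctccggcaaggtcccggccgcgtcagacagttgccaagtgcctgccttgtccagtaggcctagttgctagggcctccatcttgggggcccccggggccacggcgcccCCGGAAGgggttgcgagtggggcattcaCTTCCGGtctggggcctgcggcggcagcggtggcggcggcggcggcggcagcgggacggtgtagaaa
Tarbp2 promoter: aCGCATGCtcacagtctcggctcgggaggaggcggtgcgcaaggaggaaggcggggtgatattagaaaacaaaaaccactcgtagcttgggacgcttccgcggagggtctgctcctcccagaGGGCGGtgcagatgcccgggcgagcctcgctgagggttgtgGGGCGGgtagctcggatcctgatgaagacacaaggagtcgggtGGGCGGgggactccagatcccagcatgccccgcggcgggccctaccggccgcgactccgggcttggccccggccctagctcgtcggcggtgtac

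Promoter windows were found for 9 of the 10 genes, with Ago2 missing from the table. All 9 were rich in CpG, with 24 to 41 CpG in 300 bases beside a median of 7 over 33469 promoters, and 18.0% of all promoters held at least 24. None of the 9 held TATAAA, which 14.2% of all promoters hold. The GC box was in 6 of the 9 windows (33.1% of all promoters) and CCAAT in 4 (37.5%), with 3 matches in Drosha and 4 in Dgcr8. The ETS core was in Drosha, Ago3 and Tnrc6a (8.75% of all promoters), the NRF1 core in Xpo5 and Tarbp2 (3.33%) and the E box in Dgcr8 alone of the 9 (6.42%). None of the 6 motifs was present in all 3 of Drosha, Dgcr8 and Tnrc6a. The GC content was 59.0% to 73.3% in the 9 windows, beside a median of 51.7% over all promoters. The shares over all promoters were not matched for GC or CpG content. These matches describe the letters of the windows and show no binding.

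Xpo5 (ENSRNOG00000019085), which encodes the exporter of microRNA hairpins, had the highest level of the 10 genes. It was at 16.2, 16.9 and 16.3 FPKM in the DM rats and at 16.9, 15.6 and 15.8 FPKM in the ND rats. The groups overlapped, and the highest values of each were nearly equal. For Xpo5, limma gave a log2 fold change of 0.035 ± 0.068 (SE), with 95% bounds of -0.12 and 0.19 (adjusted p = 0.948, exact permutation p = 0.4).

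At the cytoplasmic step, Dicer1 and the gene of its partner had unlike values. Dicer1 (ENSRNOG00000010711) was at 3.52, 3.51 and 3.26 FPKM in the DM rats and at 3.56, 3.16 and 3.41 FPKM in the ND rats, and the groups overlapped throughout. By limma there was a log2 fold change of 0.024 ± 0.11 (SE), with 95% bounds of -0.24 and 0.29 (adjusted p = 0.982 from limma). The sign changed when ND replicate 2 was left out (-0.022).

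Tarbp2 (ENSRNOG00000042355) had the largest difference of the 10 genes. Its values were 5.61, 6.265 and 5.84 FPKM in the DM rats and 4.99, 4.415 and 5.20 FPKM in the ND rats. Each DM rat lay above each ND rat. The means were 5.90 ± 0.335 and 4.87 ± 0.406 FPKM (SD, n = 3 each). By limma there was a log2 fold change of 0.27 ± 0.11 (SE), with 95% bounds of 0.027 and 0.52, with an unadjusted p = 0.0343 and an adjusted p = 0.649 from limma. A log2 fold change at least as large in size was found for 22.58% of all genes tested, and its unadjusted p-value had rank 1073 among all genes tested. Across all alternatives the adjusted p-value of Tarbp2 from limma ran from 0.460 to 0.910 and its unadjusted p-value from 0.0244 to 0.112, with values of 0.05 or more under the replicate block and without DM replicate 2 or 3 or ND replicate 1 or 2. Dropping single rats moved its log2 fold change within 0.21 to 0.32, and median-ratio scaling gave 0.30.

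Relative to Dicer1, Tarbp2 was at a ratio of 1.59, 1.78 and 1.79 in the DM rats and 1.40, 1.40 and 1.53 in the ND rats. The groups did not overlap. Drosha relative to Dicer1 was 4.18, 4.05 and 4.19 in the DM rats and 4.32, 4.83 and 4.45 in the ND rats, which also did not overlap. Tarbp2 and Drosha were already separate between groups on their own, so these ratios are no independent result. Ago2 relative to Tnrc6a was 1.45, 1.53 and 1.205 in the DM rats and 1.30, 1.21 and 1.30 in the ND rats, and the groups overlapped. These ratios do not depend on the scaling of the libraries. Prkra, which encodes PACT, the other double-stranded RNA-binding partner of DICER1, was named after its values were seen. It had means of 9.13 ± 0.745 and 9.996 ± 0.875 FPKM (SD, n = 3 each) in DM and ND testes, with overlapping groups and a log2 fold change of -0.13 (limma, adjusted p = 0.856).

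**Figure D2:**
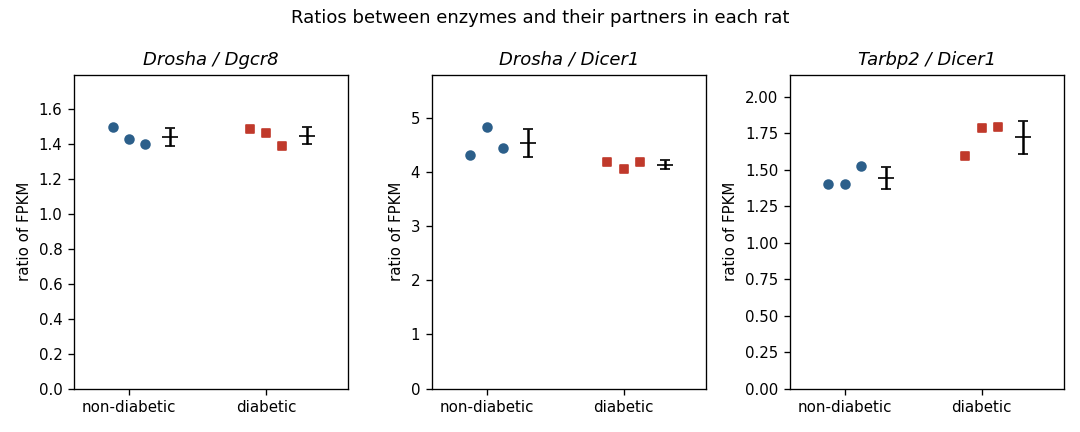
Ratio of FPKM for 3 of the 4 pairs of genes described, in each rat (linear axes from 0; ND rats as blue circles, DM rats as red squares, mean and SD as a black bar). Drosha to Dgcr8 overlaps between groups, Drosha to Dicer1 is lower in each of the 3 DM rats, and Tarbp2 to Dicer1 is higher in each of them.

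The 4 Argonaute genes encode the proteins that hold the microRNA guide, and AGO2 is the one best known to cut a fully paired target. Ago2 (ENSRNOG00000008533) made up most of their summed FPKM, with 56.5% to 64.0% over the 6 rats. It was at 13.4, 13.65 and 11.9 FPKM in the DM rats and at 12.95, 12.5 and 13.3 FPKM in the ND rats. The DM rats included both the highest and the lowest value. For Ago2, limma gave a log2 fold change of 0.0093 ± 0.081 (SE), with 95% bounds of -0.18 and 0.20 (adjusted p = 0.993 from limma).

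Ago1 (ENSRNOG00000055915) was at 4.19, 3.81 and 4.85 FPKM in the DM rats and at 4.32, 4.73 and 4.24 FPKM in the ND rats, so the ND values lay within the DM range. Its log2 fold change was -0.054, with an interval from -0.34 to 0.24 (adjusted p = 0.961 from limma). Ago3 (ENSRNOG00000034269) was at 2.36, 2.54 and 2.54 FPKM in the DM rats and at 2.23, 2.82 and 2.80 FPKM in the ND rats. Here the DM rats lay within the ND range. Its log2 fold change was -0.067, with an interval from -0.41 to 0.27 (adjusted p = 0.957 from limma). Ago4 (ENSRNOG00000025596), the lowest of the 10 genes, was at 1.27, 1.33 and 1.80 FPKM in the DM rats and at 1.435, 1.35 and 1.635 FPKM in the ND rats, and DM replicate 3 was the highest of all. Its log2 fold change was -0.017, with the widest interval of the 10, from -0.49 to 0.45 (adjusted p = 0.995 from limma). Ago4 changed sign under median-ratio scaling (0.011).

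The sum over the Argonaute genes overlapped between the groups. It was 21.2, 21.3 and 21.1 FPKM in the DM rats and 20.9, 21.4 and 21.9 FPKM in the ND rats. The shares were 61.2% ± 4.125 and 60.2% ± 1.73 for Ago2, 20.2% ± 2.59 and 20.7% ± 1.40 for Ago1, 11.7% ± 0.505 and 12.2% ± 1.35 for Ago3, and 6.91% ± 1.41 and 6.87% ± 0.581 for Ago4 (DM and ND, SD, n = 3 each). In DM replicate 3 the share of Ago2 was the lowest of the 6 rats and those of Ago1 and Ago4 were the highest. In RefSeq, Ago4, Ago1 and Ago3 lie close together. Apart from their position, reads that match more than 1 of the 4 paralogues could have been assigned to any of them, which was not tested. For comparison within the Argonaute superfamily, Piwil1, which encodes a PIWI protein of the germ line that binds piRNAs, was at 79.8 to 91.6 FPKM over the 6 rats, above Ago2 in each.

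**Figure D3:**
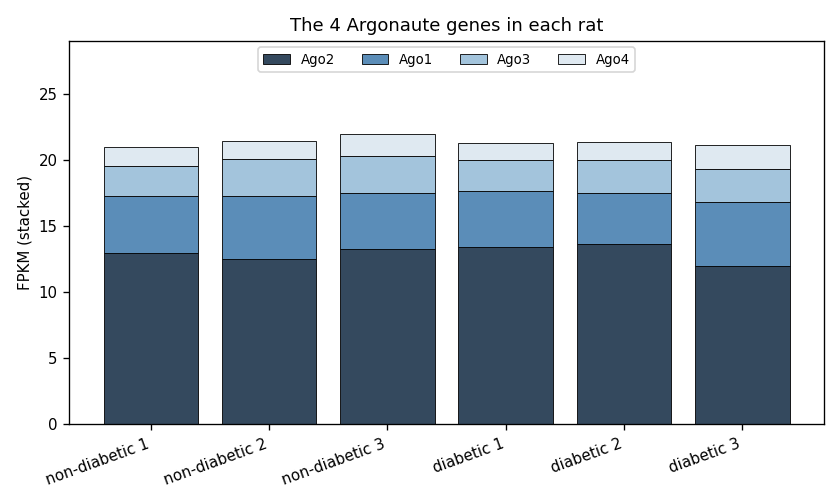
Stacked FPKM of Ago2, Ago1, Ago3 and Ago4 in each of the 3 ND and 3 DM rats (linear axis from 0). The total stays between 20.9 and 21.9 FPKM, and Ago2 forms the largest part of every bar.

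Tnrc6a (ENSRNOG00000024737), the GW182 gene of the set, was at 9.25, 8.92 and 9.91 FPKM in the DM rats and at 9.94, 10.4 and 10.2 FPKM in the ND rats. The gap between the groups was narrow, because DM replicate 3 lay just under the lowest ND rat. The means were 9.36 ± 0.503 and 10.15 ± 0.209 FPKM (SD, n = 3 each), a difference of -7.82%. By limma there was a log2 fold change of -0.12 ± 0.078 (SE), with 95% bounds of -0.30 and 0.066 (adjusted p = 0.823 from limma). Under median-ratio scaling it was -0.088 and the groups overlapped. The paralogues, which recruit the same decay enzymes, had differences of both signs. Tnrc6b was at 7.03, 7.01 and 6.48 FPKM in the DM rats and 6.88, 7.10 and 5.56 FPKM in the ND rats, with a log2 fold change of 0.078 and an interval from -0.20 to 0.35 (adjusted p = 0.932 from limma). Tnrc6c, the highest of the GW182 genes, was at 15.6, 18.8 and 15.6 FPKM in the DM rats and 17.7, 16.1 and 18.6 FPKM in the ND rats, with a log2 fold change of -0.072 and an interval from -0.31 to 0.17 (adjusted p = 0.927 from limma). Both paralogues overlapped between groups.

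**Figure D4:**
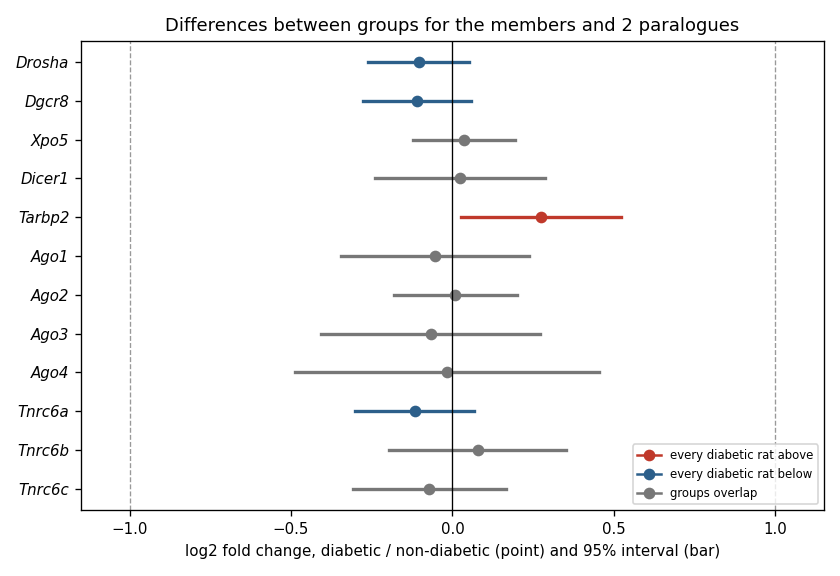
Log2 fold change (DM against ND) of the 10 genes and of Tnrc6b and Tnrc6c, with 95% intervals from limma. Dashed lines mark a 2-fold change, which every interval excludes, and colour shows whether the values of the 3 and 3 rats overlap; Tarbp2 is the only one whose interval, not adjusted for the number of genes, lies above 0.

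The levels of the 10 genes were spread over an 11.1-fold range of mean FPKM, and the order was Xpo5 (16.3 FPKM), Drosha (14.7), Ago2 (12.95), Dgcr8 (10.2), Tnrc6a (9.76), Tarbp2 (5.39), Ago1 (4.36), Dicer1 (3.40), Ago3 (2.55) and Ago4 (1.47), as means of 6 rats. Neighbours in this order had separate ranges over the 6 rats except for 2 pairs, Dgcr8 with Tnrc6a and Tarbp2 with Ago1. The ranges of Drosha and Ago2 came closest without touching, at a lowest Drosha value of 13.66 FPKM and a highest Ago2 value of 13.65 FPKM. Reads shared with overlapping genes or paralogues could shift the order of such close neighbours. Against a median of 4.60 FPKM over all genes tested, 6 of the 10 genes were above and Ago1, Dicer1, Ago3 and Ago4 were below. Dicer1 was thus among the lower genes, above 42.58% of the genes tested, whereas Drosha was above 74.05%.

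No rat carried all 10 genes up or down together. The number of genes above their own 6-rat mean was 3, 5 and 6 in the DM rats and 6, 5 and 7 in the ND rats. The median deviation of the 10 genes from those means was -0.024, -0.024 and 0.0030 on the log2 scale in the DM rats and 0.0060, 0.00082 and 0.039 in the ND rats, with overlapping groups. The coefficient of variation within a group was lowest for Drosha in the ND rats (0.682%) and highest for Ago4 in the DM rats (19.9%).

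Other genes of the pathway were grouped into 5 lists by their role, 90 genes in all. Of these, 88 were found in the table, 4 of them under a name that RefSeq lists as a synonym, and 86 were tested. By limma, 0 of the 86 had an adjusted p-value below 0.05, and 1 had an unadjusted p-value below 0.05, against 7.46% of all genes tested. DM and ND values were fully separate for 6 of the 86, 3 higher and 3 lower, or 6.98%, against 13.0% of all genes. Their median log2 fold change was -0.023, and single values ran from -0.32 to 0.15.

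Among the 15 tested genes of nuclear processing and export, the log2 fold changes had a median of -0.018 and all groups overlapped. The lowest unadjusted p-values were those of Ncbp2, a subunit of the cap-binding complex (log2 fold change 0.15, adjusted p = 0.860 from limma), and Smad1, a signal transducer that can bind the Microprocessor (-0.17, adjusted p = 0.903). Ncbp2 labels 2 rows, and the row with the higher level was used, as for Hspa8 and Dcp2. The 12 tested Dicer partners and modifiers of hairpins or microRNAs had a median of -0.025. Tut1, a terminal uridylyltransferase, was higher in every DM rat at 23.6 ± 0.156 against 21.8 ± 0.863 FPKM (SD, n = 3 each), or 0.11 on the log2 scale (adjusted p = 0.768 by limma). Pnpt1, a mitochondrial exoribonuclease, was lower in every DM rat at 6.13 ± 1.22 against 7.27 ± 0.259 FPKM (SD, n = 3 each), or -0.26 on the log2 scale (adjusted p = 0.790 by limma). Its DM values were uneven, at 4.73, 6.668 and 6.987 FPKM, and the highest of them lay just under the lowest ND value of 7.012 FPKM.

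Genes of Argonaute loading and turnover, 14 of them tested, had a median log2 fold change of -0.034 and overlapping groups throughout. Hspa8, a chaperone of the loading machinery, was at -0.16 (adjusted p = 0.780 from limma), and P4hb, a subunit of the prolyl hydroxylase that modifies AGO2, was at -0.14 (adjusted p = 0.823 from limma). Of 16 tested GW182 paralogues and partners of the silencing complex, with a median of 0.023, 2 were higher in every DM rat. These were the RNA-binding proteins Rbm4 and Fxr2, at log2 fold changes of 0.063 and 0.064 (adjusted p = 0.884 for each from limma). The groups of Rbm4 barely separated, at a lowest DM value of 26.47 FPKM and a highest ND value of 26.46 FPKM. Snd1, a nuclease linked to the silencing complex, had the lowest unadjusted p-value of that list and a log2 fold change of -0.11 (limma, adjusted p = 0.879).

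The enzymes of deadenylation, decapping and decay act after the silencing complex has bound. Of 29 tested, the median log2 fold change was -0.036. Dcp1b, a decapping activator, was at 29.01, 27.6 and 25.7 FPKM in the DM rats and at 32.9, 31.4 and 29.75 FPKM in the ND rats. Every DM rat was below every ND rat. Its log2 fold change was -0.19 with an interval from -0.36 to -0.0215, an unadjusted p = 0.0322 and an adjusted p = 0.638 from limma. Its paralogue Dcp1a was also lower in every DM rat, at 3.26 ± 0.0663 against 3.596 ± 0.154 FPKM (SD, n = 3 each), with a log2 fold change of -0.14 (limma, adjusted p = 0.853). Btg4, which recruits the CCR4-NOT deadenylase, had a log2 fold change of -0.30 and overlapping groups (adjusted p = 0.762 from limma).

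**Figure D5:**
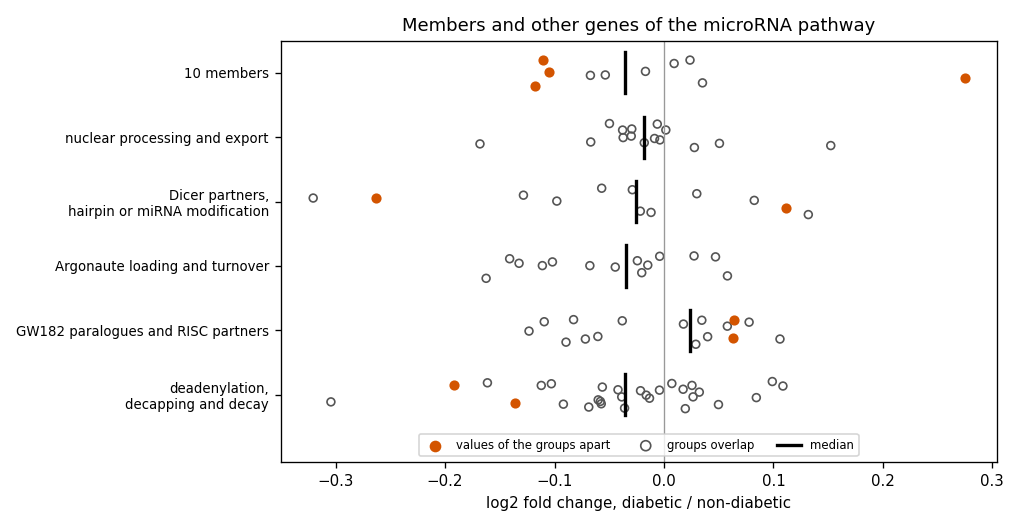
Log2 fold change (DM against ND) of the 10 genes and of the tested genes of 5 related lists, 1 point a gene, with the median of each list as a black line; filled points are genes whose values do not overlap between groups. Medians lie between -0.036 and 0.023, and Tarbp2 is the point farthest to the right.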

How the data were processed

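RNA-Seq of testis from 3 DM and 3 ND rats was used, grouped by the sample labels. Per the labels and methods, the authors ran FastQC on the reads, used BWA against rRNA sequences, STAR for alignment and StringTie for transcript assembly. They deposited 1 FPKM value per gene and rat, and these were used unchanged. The genome build, the tool versions and the strand setting are not given in the sources used here. In RefSeq, 5 of the 10 genes (Dgcr8, Ago1, Ago2, Ago3 and Tnrc6a) overlap another gene, and reads of such pairs could be mixed. The study screened with DESeq2, which needs counts, so it could not be run on FPKM. The labels' protocol names both poly(A)+ and poly(A)- fractions and an adipose source, although every sample is labelled as testis. Each library was taken as a single rat. Limma p-values set the difference between groups against the spread within groups, moderated over all genes tested.

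Values were transformed to log2(FPKM + 0.1), a scale that understates changes of low genes, and 20338 genes averaging 0.5 FPKM or more were compared with limma 3.58.1 (lmFit, eBayes with trend; R 4.3.3). Tests were two-sided, and p-values were adjusted by Benjamini-Hochberg over all 20338. Exact permutation tests used scipy 1.17.1. The steps were also run on simulated data, with planted changes far larger than those of the 10 genes. That run therefore does not show whether differences as small as those reported here would be detected. The members and lists were chosen with earlier results of these data known. Named beside the 10 genes were the 2 genes of each list with the lowest unadjusted p-value, Tnrc6b and Tnrc6c, while Prkra, Fxr2, Dcp1a and Piwil1 were named after their values were seen. Of the related genes, Ipo8 and Edc4 were not analysed here. Symbols of 16696 genes matched a protein-coding gene in RefSeq (GRCr8). Settings varied one at a time were the pseudocount (0.01 or 1), the filter (none, or a mean of 1 FPKM or more), median-ratio scaling, eBayes without trend or robust, protein-coding genes only, the replicate number as a block, and each rat left out in turn. Motifs and markers were counted as described with the results.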

Additional observations from a re-analysis of the deposited data

How the results depend on the processing

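Under the 15 alternatives that were fitted (9 that kept every rat and 6 that left out 1 rat each), 0 of the 10 genes and 0 of the related genes reached an adjusted p-value below 0.05 by limma, and the lowest adjusted p-value of any of the 10 genes was 0.460. At an unadjusted p-value below 0.05 the count of the 10 genes, 1 as reported, was 0 with the replicate block and without DM replicate 2, DM replicate 3, ND replicate 1 or ND replicate 2. The signs of Drosha, Dgcr8, Xpo5, Tarbp2, Ago3 and Tnrc6a held in all 15. In the fits without single rats the log2 fold change ran from -0.15 to 0.026 for Ago1, above 0 without DM replicate 2, and from -0.022 to 0.062 for Dicer1, below 0 without ND replicate 2. It ran from -0.027 to 0.069 for Ago2, below 0 without DM replicate 1, DM replicate 2 or ND replicate 2, and from -0.16 to 0.073 for Ago4, above 0 without DM replicate 1, DM replicate 2 or ND replicate 3. Under median-ratio scaling Ago4 was at 0.011 and the median of the 10 genes at -0.0071, against -0.035 as reported. The median of all genes tested moved alike, to 0.008 from -0.021. Without single rats the median of the 10 genes ran from -0.081 (without DM replicate 3) to 0.0025 (without ND replicate 3). The number of the 10 genes whose groups were separate went from 4 to 2 under median-ratio scaling and stayed at 4 with equal totals, both chosen after seeing the data. Over all genes, 7 had an adjusted p-value below 0.05. That count was 3 without a filter, 12 without the trend, 36 among protein-coding genes, 4 with the replicate block, and 0 to 14 without single rats, with 4 without DM replicate 1, 14 without ND replicate 1 and 0 without ND replicate 3, where 1502 were below 0.05 before adjustment. The cause of these moves was not tested. The deviations of same-numbered rats correlated at 0.106, 0.015 and 0.098. For DM replicates 1 and 3 the same-numbered ND rat correlated best, and for DM replicate 2 it was ND replicate 3. With 3 rats a group, such small correlations cannot decide whether the replicate numbers pair the rats. The read depth is unknown, and 3 rats a group limit the precision.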
